A study of Homo sapiens with 6 samples.

Results

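CCN2, a secreted matricellular protein gene, and 9 further genes of the YAP-TEAD transcription programme were compared between cells of the established human colorectal cancer line SW480 and of its subpopulation M5. The genes are CCN1, CCN2, ANKRD1, AMOTL1, AMOTL2, YAP1, LATS2, TEAD1, TEAD4 and AJUBA. They were taken by name, as every probe set whose only gene symbol is one of the 10, which gave 25 of the 54613 probe sets that are not controls, or 10 of 19775 genes. A probe set is a group of short probes that report 1 signal for a transcript. The SW480 group is the parental line, with no treatment named. The M5 group is a population with raised ability to metastasise to the liver, obtained from SW480 by selection in an animal, and it carries no named transgene. Both were grown in the same serum-containing medium, and each was measured on 3 arrays labelled as biological replicates. The labels do not name the animal, the number of rounds of selection or whether M5 came from 1 clone.

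YAP1 is a transcriptional co-activator that binds no DNA by itself and reaches its target genes through the TEAD factors. In the Hippo pathway, the kinases MST1 and MST2 with the scaffold SAV1 activate LATS1 and LATS2, which phosphorylate YAP1 and keep it out of the nucleus. CCN2, CCN1 and ANKRD1 are the targets most used as a readout of YAP1 activity. AMOTL2 and LATS2 are targets that also restrain YAP1, which makes them feedback genes. Messenger RNA arrays do not measure where the YAP1 protein is or whether it is phosphorylated.

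Promoter sequences are shown because the programme is defined by TEAD binding. CCN2 had the most TEAD motifs among the 7 genes with a promoter window. The RefSeq promoter table (GRCh38.p14) held a window for 7 of the 10 genes and none for CCN1, TEAD1 or TEAD4. The 250 bases before each transcription start were searched for the core TEAD motif GGAATG on both strands. Capitals mark the motif. The CCN2 window is chr6:131951373-131951622, the ANKRD1 window chr10:90921088-90921337 and the YAP1 window chr11:102110197-102110446, the first and second on the minus strand and the third on the plus strand. For AMOTL2 only the 30 bases around the motif are given, at chr3:134374499-134374528 on the minus strand, where the motif lies in the opposite orientation.
CCN2: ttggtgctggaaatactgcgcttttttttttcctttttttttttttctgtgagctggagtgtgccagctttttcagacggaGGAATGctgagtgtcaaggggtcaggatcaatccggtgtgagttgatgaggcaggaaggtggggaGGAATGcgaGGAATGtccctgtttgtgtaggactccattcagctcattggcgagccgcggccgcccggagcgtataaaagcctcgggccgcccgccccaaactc
ANKRD1: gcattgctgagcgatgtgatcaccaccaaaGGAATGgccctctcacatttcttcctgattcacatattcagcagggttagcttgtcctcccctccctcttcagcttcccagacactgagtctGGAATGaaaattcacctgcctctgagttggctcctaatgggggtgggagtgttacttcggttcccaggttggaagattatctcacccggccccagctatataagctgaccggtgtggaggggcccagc
YAP1: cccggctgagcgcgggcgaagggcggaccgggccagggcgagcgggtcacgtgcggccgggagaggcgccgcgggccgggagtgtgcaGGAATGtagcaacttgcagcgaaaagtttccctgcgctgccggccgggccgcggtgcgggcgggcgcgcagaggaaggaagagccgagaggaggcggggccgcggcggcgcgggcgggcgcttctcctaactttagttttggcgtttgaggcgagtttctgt
AMOTL2: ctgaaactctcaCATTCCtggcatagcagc

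The CCN2 window held 3 matches, whose first bases lay at -169, -104 and -95 relative to the start. ANKRD1 held 2 matches, at -220 and -128, and YAP1 held 1, at -162. The AMOTL2 match lay at -69. Over all 35116 windows of this length in the table, 11.89% held at least 1 match, 0.94% at least 2 and 0.083% at least 3. AMOTL2 and AJUBA each had 2 windows, of which 1 held a match, and the windows of AMOTL1 and LATS2 held none. ANKRD1 was the only member with a window that also held the AP-1 motif TGANTCA (6.57% of all windows), and no member's window held a CArG box, the motif of the serum response factor (1.16% of all windows). A match describes these letters and is not evidence of binding, and a link between matches and the difference in M5 was not tested.

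Some arrays stood apart. The 2% trimmed mean signals ran from 20.95 to 86.41, and replicate 1 of both populations was dimmest; these 2 arrays are called the dimmer pair here. Arrays were therefore quantile normalised, and all signals below are normalised signals unless stated otherwise. M5 replicates 2 and 3 differed by a median absolute deviation of 0.115 (log2) over 4034 bright probe sets, against 0.293 to 0.474 for the other array pairs, and they were counted as 1 sample in means and standard deviations. The 18S ribosomal RNA control of the 5′ probe set was 2823.9 to 4163.4 in deposited signal on M5 replicate 1 and on the first and second SW480 replicates, against 96.3 to 234.1 on the other 3 arrays. P-values take the replicates as labelled. No label says that they came from separate cultures, so the spread behind each p may be technical. The epithelial label fitted the markers in part: EPCAM signals were 2180 to 2920 and KRT18 signals 4020 to 5180, while the intestinal genes CDX1, CDX2 and CDH17 lay under the filter on low signals. Of the other measured markers, KRT8 (846 to 1900), KRT19 (955 to 2960) and CDH1 (262 to 390) were high, and KRT20 was 23.7 to 57.5. VIL1 (6.17 to 17) and TSPAN8 (2.82 to 24.8) were low, and LGALS4 exceeded 12.3 only on SW480 replicate 1 (66.4).

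M5 was compared with SW480 to ask which transcripts differ after selection for liver metastasis. Over all 6 arrays, 0 of the 21 tested probe sets of the 10 genes passed an adjusted p of 0.05 in limma, the linear model used for the test, and 5 of the 21 had an unadjusted p under 0.05. Of all 32770 probe sets tested, 0.0702% passed the adjusted threshold and 10.3% had an unadjusted p under 0.05. The differences between the groups below are therefore values that did not pass over 6 arrays, and calls made in other fits are named as such. The other 4 of the 25 probe sets, among them the only one for ANKRD1, were left out as too dim. Fold changes, also called log2 differences, are M5 minus SW480 of log2 (signal plus 1.7), so they understate differences between low signals.

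CCN2 had the largest difference of the 10 genes and the highest rank, 51 of 32770 by p. Its probe set (209101_at) had signals of 16.8, 18.1 and 14 on SW480 replicates 1, 2 and 3. On M5 replicates 1, 2 and 3 the signals were 45.3, 89.1 and 97. All M5 arrays lay above all SW480 arrays, and the dimmer M5 array was the lowest of its group. The SW480 mean was 16.3 ± 2.13 (SD, n = 3), and the M5 mean was 69.2 ± 33.7 (SD, n = 2). The log2 fold change was 2.07, a 4.19-fold higher level in M5, with a standard error (SE) of 0.37. Its 95% interval was 1.26 to 2.87, with an adjusted p of 0.088 in limma. The SW480 signals were low: the hepatocyte genes ALB and APOB, left out as too dim, reached up to 17.1 on an array. Without detection calls, the SW480 level of CCN2 may be background, so the size of the fold is uncertain. In deposited signal the values were 8.8, 18.7 and 19.4 in SW480 and 24.4, 103.7 and 115.7 in M5, so the groups did not overlap before normalisation either.

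The size of the CCN2 difference was not the same on all arrays. It was 1.35 on the dimmer pair and 2.42 on the 4 brighter arrays. Split by the 18S control, it was 1.3 where that signal was high and 2.6 where it was low. The high side set M5 replicate 1 against SW480 replicates 1 and 2. The low side set M5 replicates 2 and 3 against SW480 replicate 3. Brightness and the 18S control thus divide the M5 arrays in the same way, so these splits are not separate evidence. With a block for the dimmer pair, CCN2 passed (adjusted p = 0.0407 in limma), with M5 replicates 2 and 3 entered as separate samples. It also passed without M5 replicate 1 (log2 fold change 2.4, adjusted p = 0.0142 in limma), where the M5 group is only the close pair of replicates 2 and 3, so that p takes their small spread as replication. Counting M5 replicates 2 and 3 as 1 sample gave 1.9 (SE 0.44, adjusted p = 0.544 in limma). Without the dimmer pair and with these arrays averaged, an alternative added after the values were seen, it was 2.42 (adjusted p = 0.0104 in limma).

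**Figure D1:**
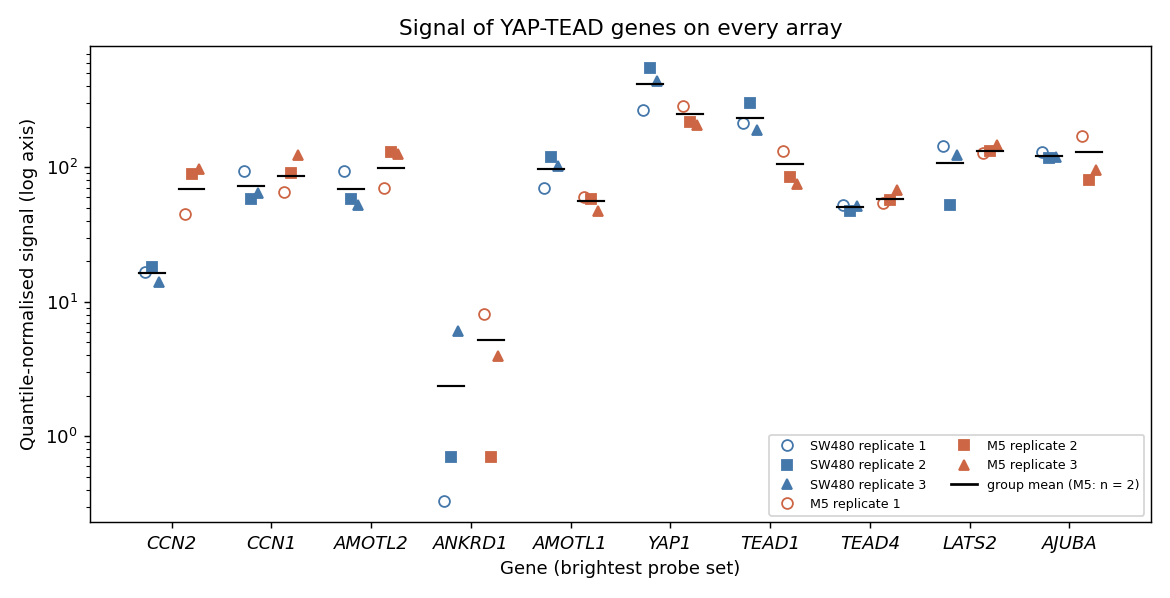
Normalised signal (log axis) of the brightest probe set of each gene on the 3 SW480 and 3 M5 arrays, with open symbols for the dimmer pair and lines for group means (SW480 n = 3, M5 n = 2). CCN2 signals were 14 to 18.1 in SW480 and 45.3 to 97 in M5, TEAD1 signals were lower on every M5 array, and ANKRD1 lay at the bottom of the scale; heights are not comparable between genes.

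CCN1, also called CYR61, encodes the closest relative of CCN2 and is induced by YAP1 in many cell types. Its brightest probe set (201289_at) had signals of 94.3, 58 and 64 in SW480 and 65.2, 90.6 and 124 in M5. The groups overlapped, with the dimmer SW480 array above 2 of the M5 arrays. The log2 fold change was 0.35 (SE 0.32, 95% interval -0.35 to 1.04, adjusted p = 0.753 in limma). The other CCN1 probe set gave 0.25 (SE 0.37). Both CCN1 probe sets had opposite signs on the dimmer pair (-0.52 and -0.72) and on the brighter arrays (0.78 and 0.74).

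AMOTL2 encodes an angiomotin-family scaffold that binds YAP1, and it is a YAP-TEAD target itself. Its probe set (203002_at) had signals of 94.3, 58.5 and 52.6 in SW480 and 70.4, 131 and 126 in M5. M5 replicates 2 and 3 were above all SW480 arrays, but M5 replicate 1 was below SW480 replicate 1. For AMOTL2 the log2 fold change was 0.65 (SE 0.33, adjusted p = 0.539 in limma), with -0.41 on the dimmer pair and 1.18 on the brighter arrays. ANKRD1, a cardiac ankyrin repeat gene and a classical YAP1 target, had signals of 0.333, 0.7 and 6.12 in SW480 and 8.07, 0.7 and 3.93 in M5. These lay around the pseudocount, so no fold is given for ANKRD1.

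AMOTL1, a paralogue of AMOTL2, differed in the other direction on its brightest probe set (225450_at), with signals of 69.8, 119 and 102 in SW480 and 59.7, 57.8 and 47.3 in M5. All M5 arrays lay below all SW480 arrays. Its log2 fold change was -0.78 (SE 0.29, adjusted p = 0.421 in limma). With M5 replicates 2 and 3 averaged it was -0.75 (SE 0.36, adjusted p = 0.891 in limma). The 3 dimmer AMOTL1 probe sets gave -0.17, 0.53 and 0.71 with SE of 0.62 to 0.75, and the mean over all 4 was 0.07, so the AMOTL1 probe sets did not point one way.

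All 3 YAP1 probe sets were lower in M5 than in SW480 on the brighter arrays, while on the dimmer pair their differences ran from -0.36 (213342_at) to 0.11 (224894_at). The brightest probe set (224894_at) had 266, 551 and 440 in SW480 and 287, 216 and 206 in M5. The groups overlapped through the dimmer pair, where M5 was slightly above SW480. The log2 fold change was -0.77 (SE 0.27, 95% interval -1.37 to -0.17, adjusted p = 0.394 in limma). With M5 replicates 2 and 3 averaged it was -0.7 (SE 0.33, adjusted p = 0.891 in limma). On the brighter arrays this probe set differed by -1.22. The other YAP1 probe sets gave -0.57 (224895_at, SE 0.24) and -0.45 (213342_at, SE 0.28), so all 3 had a negative fold change. For 224895_at the signals were 236, 294 and 217 in SW480 and 214, 151 and 140 in M5, with no overlap. WWTR1, which encodes the YAP1 paralogue TAZ, had signals of 853, 342 and 401 in SW480 and 498, 420 and 404 in M5 (log2 difference -0.16, SE 0.30, adjusted p = 0.896 in limma).

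TEAD1, which encodes a DNA-binding partner of YAP1, had the second largest difference among the 10 genes. Its brightest probe set (224955_at) had signals of 213, 298 and 190 in SW480 and 132, 84 and 75.7 in M5. Every M5 array lay below every SW480 array, on the dimmer pair too. The means were 234 ± 56.7 (SD, n = 3) and 106 ± 36.9 (SD, n = 2). The log2 fold change was -1.27, a 2.4-fold lower level in M5, with an SE of 0.28, a 95% interval of -1.89 to -0.65 and an adjusted p of 0.216 in limma. Without M5 replicate 1 it was -1.5 (adjusted p = 0.0329 in limma), a call that rests on M5 replicates 2 and 3 as separate samples. With replicate 1 kept and these averaged it was -1.15 (adjusted p = 0.764 in limma). The other TEAD1 probe sets, dimmer and more variable, gave -0.69 (SE 0.53) and 0.21 (SE 0.74), and the mean over all 3 was -0.58.

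TEAD4 is a further TEAD factor, and its 2 probe sets gave 0.22 (41037_at, SE 0.28) and 0.45 (204281_at, SE 0.33). For 41037_at the signals were 52.6, 47.5 and 51.9 in SW480 and 54.4, 56.7 and 67.7 in M5, which did not overlap but differed by little. TEAD2 and TEAD3 had log2 fold changes of -0.01 (SE 0.29) and 0.34 (SE 0.35). No TEAD gene passed the adjusted threshold over 6 arrays.

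LATS2, a kinase that phosphorylates YAP1, had signals of 145, 52.1 and 123 in SW480 and 127, 133 and 147 in M5 on its brightest probe set (227013_at). Only SW480 replicate 2 stood low. The LATS2 log2 fold change was 0.46 (SE 0.35, adjusted p = 0.69 in limma), and 0.02 without that array. The second tested LATS2 probe set gave 0.16 (SE 0.32). Another, 230348_at, lay under the filter, with 2.55, 3.28 and 1.6 in SW480 and 2.53, 10.4 and 17.7 in M5. LATS1 had a log2 difference of 0.19 (SE 0.33). AJUBA, a LIM-domain protein that binds and inhibits LATS kinases, had signals of 130, 117 and 120 in SW480 and 170, 80 and 95.8 in M5 on its brightest probe set (225806_at). The AJUBA groups overlapped, and its 3 tested probe sets gave -0.16, -0.03 and 0.06.

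**Figure D2:**
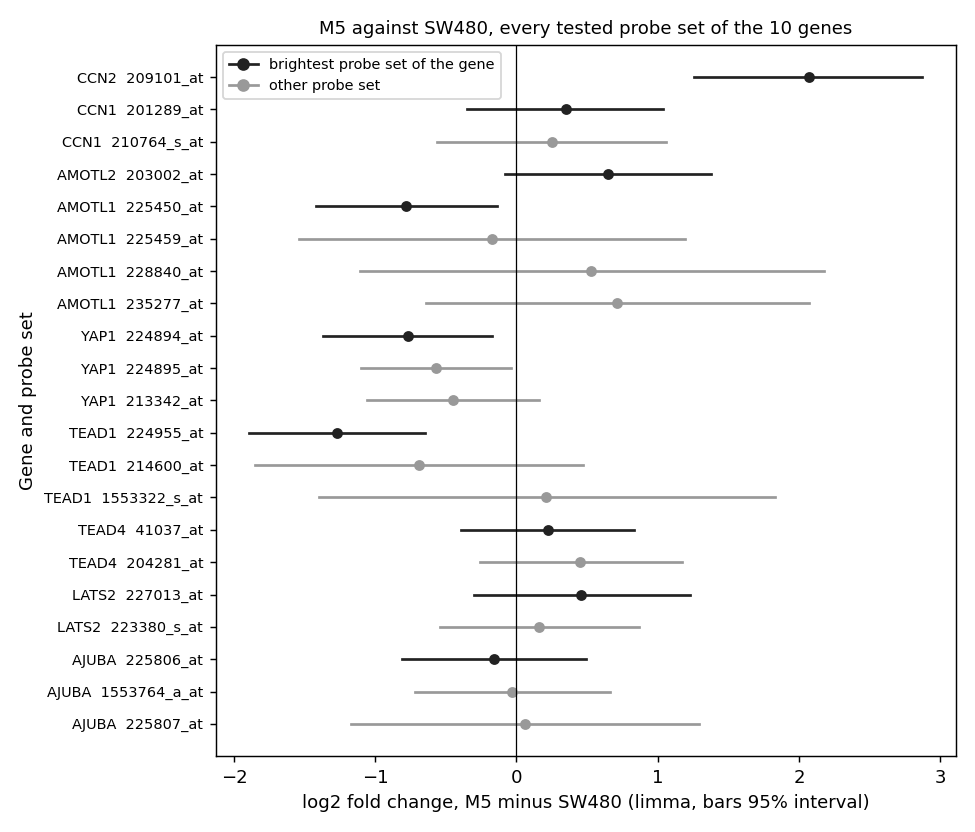
Log2 fold change (M5 minus SW480, limma over 6 arrays) with its 95% interval for the 21 tested probe sets, black for the brightest probe set of a gene and grey for the others. The interval of CCN2 (1.26 to 2.87) lies above 0, those of TEAD1, AMOTL1 and 2 YAP1 probe sets lie below 0, and none passed after adjustment over all probe sets. All intervals take M5 replicates 2 and 3 as separate samples. With both averaged, the SE was larger: AMOTL1 (225450_at) had -0.75 (SE 0.36), and YAP1 had -0.7 (224894_at, SE 0.33) and -0.48 (224895_at, SE 0.3).

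Over the tested probe sets of the 10 genes, 12 had a positive and 9 a negative fold change, with a median of 0.16 against -0.01 over all probe sets. By the brightest probe set, 5 of the 9 tested genes were above and 4 below 0. Of the 5 probe sets at an unadjusted p under 0.05, 1 was higher in M5 (CCN2) and 4 were lower (AMOTL1, TEAD1 and 2 of YAP1). The groups did not overlap for 5 of the 21, against 15.1% of all tested probe sets.

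The CCN2 difference was set against that of each of the other 8 tested genes within the same array, by an exact two-sided permutation test over 3 and 3 arrays, which cannot go below p = 0.1. The CCN2 fold change exceeded that of CCN1 by 1.72 and that of AMOTL2 by 1.41 (exact p = 0.1 each). It exceeded that of YAP1 by 2.84 and that of TEAD1 by 3.33 (exact p = 0.1 each). The test reached this smallest p for 7 of the 8 genes and gave 0.2 for LATS2, with Benjamini-Hochberg adjusted values of 0.114 and 0.2. This test thus cannot place the differences under 0.05. CCN2 already had the largest fold change of the tested genes, so its excess over each of the others was given beforehand. The genes were also chosen with earlier results of these data known. The test took the close pair of M5 replicates as separate arrays. Its p-values are therefore a description, and no conclusion is drawn from them.

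Without the dimmer pair, limma called 2 of 22 probe sets of the 10 genes higher (CCN2 and AMOTL2) and 4 lower (AMOTL1, TEAD1 and 2 of YAP1), or 27.3%, against 8.18% of all probe sets. The genes were chosen with earlier results of these data known, and YAP1 counts as 2 of these calls. The higher share is therefore a description. In this fit CCN2 had a log2 difference of 2.42 (SE 0.27, adjusted p = 0.00168 in limma). YAP1 (224894_at) had -1.22 (SE 0.17, adjusted p = 0.00502 in limma) and TEAD1 -1.56 (SE 0.24, adjusted p = 0.00678 in limma). AMOTL2 had 1.18 (SE 0.21, adjusted p = 0.0124 in limma) and AMOTL1 -1.05 (SE 0.23, adjusted p = 0.0263 in limma). These calls rest on M5 replicates 2 and 3 as separate samples. With both averaged, CCN2 alone was called, against 1.87% of all probe sets, and only SW480 replicates 2 and 3 then gave a spread, with the lone M5 sample assumed to vary like them. The adjusted p in that limma fit was 0.0562 for TEAD1 and 0.0796 for YAP1. With array weights, limma called 2 higher and 3 lower (6.27% of all probe sets were called). With the dim-array block it called only CCN2 (0.265%), and without M5 replicate 1 CCN2 and TEAD1 (1.25%). The fits with array weights, with the block and without M5 replicate 1 also took M5 replicates 2 and 3 as separate samples.

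**Figure D3:**
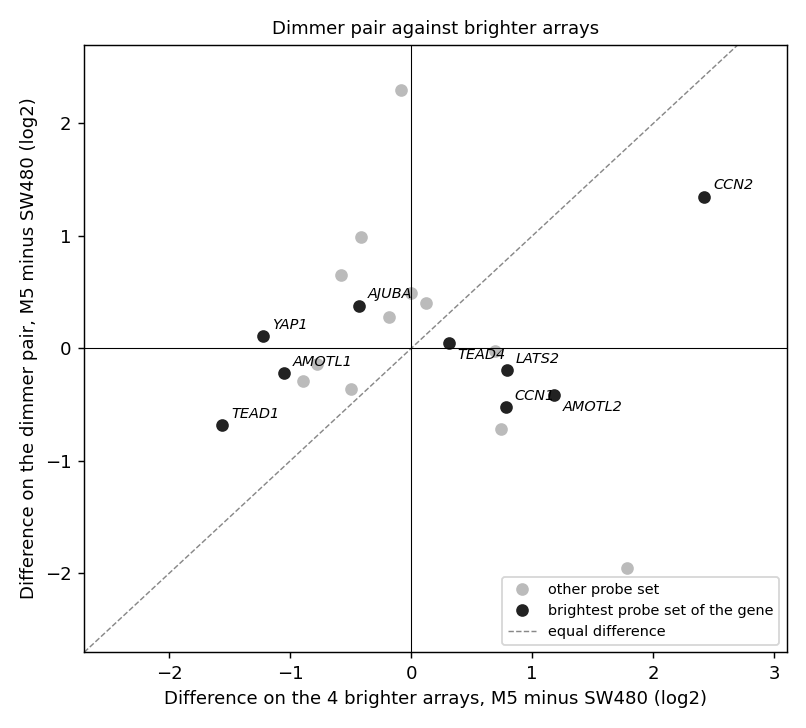
Log2 difference (M5 minus SW480) of the 21 tested probe sets on the 4 brighter arrays (horizontal) and on the dimmer pair (vertical), with the dashed line for equal differences. The sign was the same for 8 of the 21; CCN2 (2.42 and 1.35) and TEAD1 (224955_at, -1.56 and -0.68) kept it, while AMOTL2, both CCN1 probe sets and 1 of 3 YAP1 probe sets (224894_at) had opposite signs.

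In the wider Hippo pathway, 0 of 22 measured genes among 25 kinases, scaffolds and upstream regulators passed over 6 arrays in limma. Of the 22, 5 had an unadjusted p under 0.05, against 10.3% of all probe sets tested. Of those, 1 was higher in M5 and 4 lower, and the list's median fold change was -0.3. Without the dimmer pair, 1 of the 22 was called higher and 2 lower, against 8.18% of all probe sets called in either direction. Counts in this and the other gene lists take 1 probe set per gene, the brightest. The shares of 10.3% and 8.18% are over all probe sets, also dimmer ones, and no share over genes was computed. They are therefore only a rough base for the list counts. SAV1, the scaffold of the MST kinases, had signals of 90.9, 78.4 and 121 in SW480 and 147, 230 and 224 in M5. Its log2 fold change was 1.03 (SE 0.27, adjusted p = 0.293 in limma). TAOK1, a kinase that activates the MST kinases, had 520, 376 and 402 in SW480 and 236, 273 and 235 in M5, for a log2 difference of -0.79 (SE 0.20, adjusted p = 0.28 in limma). WWC1, the scaffold protein KIBRA, had -0.73 (SE 0.28). For these 3 genes the groups did not overlap.

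Further target genes came from a published signature of YAP and TAZ targets and exclude the 10. Of 14 measured among 16, 0 passed in limma, while 4 had an unadjusted p under 0.05, all higher in M5. The share of all probe sets under that p, in either direction, was 10.3%. Without the dimmer pair, 4 of the 14 were called higher and 1 lower, against 8.18% of all probe sets called in either direction. The median fold change was 0.27, with 9 genes above and 5 below 0. AXL, a receptor tyrosine kinase gene, had signals of 221, 85.1 and 103 in SW480 and 397, 320 and 297 in M5, for a log2 difference of 1.41 (SE 0.33, adjusted p = 0.231 in limma). MYOF, which encodes the membrane repair protein myoferlin, had 1200, 922 and 881 in SW480 and 1670, 1580 and 1510 in M5, for a log2 difference of 0.68 (SE 0.16, adjusted p = 0.256 in limma). Both genes had groups that did not overlap. GADD45A, a stress-response gene, had a log2 difference of 1.12 (SE 0.38), with -0.21 on the dimmer pair.

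CCN2 is also known as a target of TGF-beta signalling through SMAD factors and of the actin-regulated MRTF-SRF complex. Among TGF-beta and SMAD genes, 0 of 10 measured of 12 passed in limma, and the median was -0.11. Of the 10, 2 had an unadjusted p under 0.05 in limma, 0 higher and 2 lower in M5, against 10.3% of all probe sets. Without the dimmer pair 0 of them were called. TGFB1, the ligand, had 127, 163 and 86.5 in SW480 and 63.4, 61.5 and 67.5 in M5, and SMAD7, an inhibitor induced by the pathway, had 19.6, 27.7 and 30.9 in SW480 and 1.6, 12.7 and 15.2 in M5. Their log2 fold changes were -0.9 (SE 0.29) and -1.55 (SE 0.62), and neither passed. TGFBR2, a receptor gene, had 0.47 (SE 0.29). Among MRTF-SRF targets, 0 of 11 measured of 14 passed in limma, with a median of -0.08. Of the 11, 3 had an unadjusted p under 0.05 in limma, 1 higher and 2 lower in M5. Without the dimmer pair, 1 was called higher and 1 lower, against 8.18% of all probe sets called in either direction. TAGLN, an actin-binding protein gene, had -1.86 (SE 0.59), FHL2 0.69 (SE 0.25) and MRTFB -0.71 (SE 0.28). Of the YAP partner factors, 5 of 7 were measured and 0 passed in limma, with 0 at an unadjusted p under 0.05 and a median of -0.01, and VGLL2 and VGLL4 had 0.64 (SE 0.53) and -0.12 (SE 0.21). Of 4 further CCN family genes only CCN3 was measured (-0.45, SE 0.72).

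**Figure D4:**
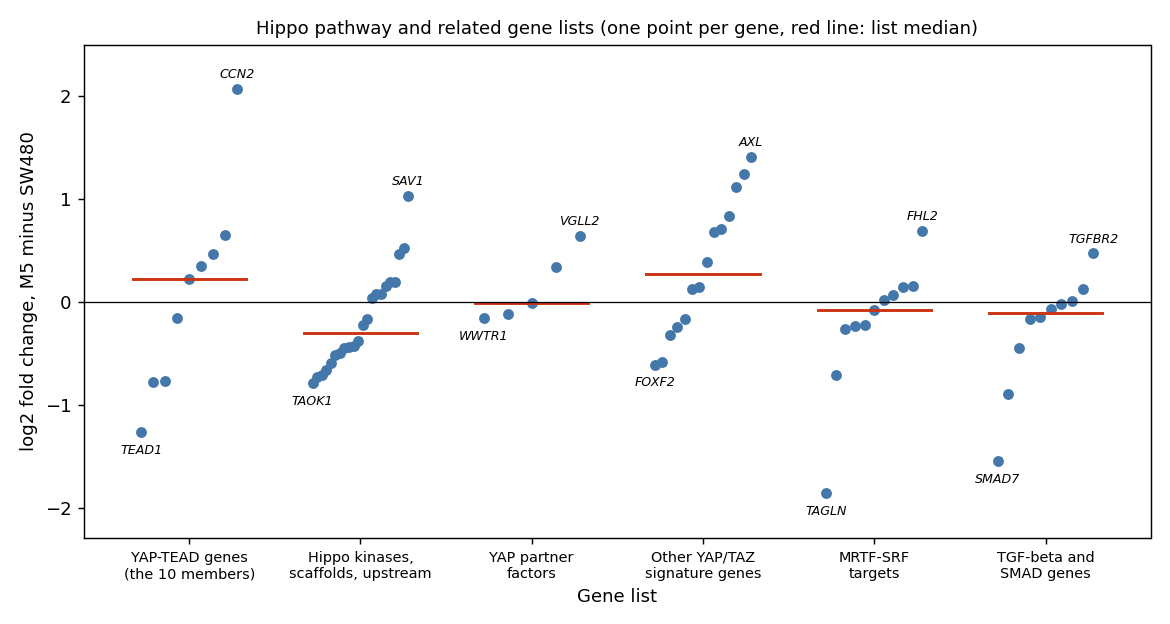
Log2 fold change (M5 minus SW480, limma over 6 arrays) of each measured gene in 6 lists (the 10 genes, Hippo regulators, YAP partner factors, further YAP and TAZ signature genes, MRTF-SRF targets, TGF-beta and SMAD genes), 1 point per gene at its brightest probe set, with red lines for list medians. Among the genes plotted, CCN2 (2.07) has the highest value and TAGLN (-1.86) the lowest; these medians run from -0.3 for the Hippo regulators to 0.27 for further YAP and TAZ signature genes, and no plotted gene passed after adjustment.

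Among the genes most like CCN2 over the 6 arrays, by Pearson correlation of normalised log2 signal among 13664 genes, were MT1F (r = 0.992), SMC6 (0.99), CHCHD5 (0.989) and SNAP47 (0.986). MT1F, a metallothionein gene, had 1180, 1220 and 1150 in SW480 and 2200, 2810 and 3430 in M5, and it was higher in M5 by 1.22 (adjusted p = 0.0271 in limma). In 88 genes r was above 0.95, and the 6 points share arrays, brightness and the group difference, so the values are a description.

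CCN2 lies on chromosome 6 in a run of genes that mostly had negative fold changes: of the 5 tested genes on either side by order in RefSeq, 7 were below and 3 above 0, with a median of -0.22, and 0 passed in limma. MED23, a Mediator subunit gene, had the lowest value of them (-0.8, SE 0.31). Around YAP1 on chromosome 11, 7 of 10 neighbours were also below 0 (median -0.2), while BIRC2, its next tested neighbour, had 0.28 (SE 0.19). The same 7 of 10 were below 0 around AMOTL2 (median -0.13) and TEAD4 (-0.21). The neighbour median was -0.27 for CCN1 and 0.11 for ANKRD1, so mostly negative neighbours were not particular to CCN2.

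CCN2 is made by fibroblasts and endothelial cells as well as by tumour cells, so markers of other cells are given beside it. Of 11 fibroblast markers 8 were measured, and their summed signal was 253 to 396 on SW480 arrays and 192 to 262 on M5 arrays. By fold change 4 of these markers were above and 4 below 0, from COL3A1 (-1.31, SE 0.33) to DCN (0.63, SE 0.71). COL3A1, a fibrillar collagen gene, had 223, 104 and 168 in SW480 and 81.2, 66.5 and 45 in M5. Of 9 endothelial markers 4 were measured, with sums of 29 to 47 in SW480 and 30 to 51 in M5. Leukocyte markers (4 of 8) summed to 24 to 117 and 74 to 196, and hepatocyte markers (7 of 9) to 191 to 385 and 142 to 426. By fold change, 3 leukocyte markers were above and 1 below 0. Of the hepatocyte markers, 3 were above and 4 below 0, with a median of -0.42. Epithelial markers (9 of 12) summed to 9123 to 13078 and 11348 to 12305. No marker with a probe set of its own was at 0 on all arrays, and the highest signal of those under the filter was 17.1. Of the 8 leukocyte markers, only 6 had such a probe set. TTR, which encodes the carrier protein transthyretin and is a hepatocyte marker, had 5.17, 1.67 and 1.43 in SW480 and 196, 73.1 and 5.68 in M5. The TTR groups were kept apart only by 5.68 on M5 replicate 3 against 5.17 on SW480 replicate 1. These low signals lay near the pseudocount of 1.7, and only M5 replicates 1 and 2 were high. The size of the TTR log2 fold change (3.52, SE 0.97, adjusted p = 0.299 in limma) is therefore uncertain. The hepatocyte genes ALB and APOB lay under the filter. LYZ, the lysozyme gene among the leukocyte markers, had 73.5, 1.22 and 23.5 in SW480 and 63.9, 147 and 161 in M5. The part of these markers in the CCN2 result was not tested. Fewer cells with a transcript and less of it per cell cannot be told apart in these bulk samples.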

How the data were processed

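Total RNA of SW480 and M5 cells (3 arrays each) was hybridised to Affymetrix arrays. The deposited values are linear probe set intensities made with GCOS 1.4, per the submitters' processing notes, which as given here state no settings, scaling or build. The table has no detection calls, and the number of arrays limits the precision. Control probe sets (62) were left out. Genes were named from the platform annotation of 2016 (41091 probe sets with 1 symbol, 1801 with several, 11721 with none), checked by gene ID against RefSeq, and of 137 list symbols 6 found no probe set with that symbol alone.

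Signals were quantile normalised, 1.7 (the 20th percentile) was added before log2, and the dimmest 40% of probe sets by mean over 6 arrays were dropped. Both populations were compared in limma 3.58.1 (R 4.3.3, lmFit and eBayes with trend), two-sided, with Benjamini-Hochberg adjustment over all probe sets tested and a threshold of 0.05. The brightest kept probe set stood for a gene. From each list, genes past the threshold or else the 3 with the smallest p were named, with WWTR1, LATS1, TEAD2, TEAD3 and the 5 genes most like CCN2 as well, of which 1 is not reported here. Single markers and the neighbours MED23 and BIRC2 were picked after their values were seen. The members and lists were chosen with earlier results of these data known. The scripts were tested on simulated data. Alternatives changed the scaling, pseudocount, filter, variance model, pairing, probe set per gene and arrays. Figures were drawn with matplotlib 3.10.9.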

Additional observations from a re-analysis of the deposited data

How the results depend on the processing

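Over 6 arrays, 0 probe sets of the 10 genes were called higher and 0 lower in M5 by limma. These counts became 2 and 3 with array weights, 2 and 4 without the dimmer pair, 1 and 0 with the dim-array block, and 1 and 0 when, besides dropping the dimmer pair, M5 replicates 2 and 3 were averaged. Dropping each array once gave 0 to 1 in each direction, the 1 in each case without M5 replicate 1. The log2 fold change of CCN2 was positive in all 19 alternatives, from 1.8 to 2.42, and passed in 5: array weights (2.34), without the dimmer pair (2.42), the dim-array block (2.07), without M5 replicate 1, and without the dimmer pair on averaged M5 replicates 2 and 3 (2.42). Apart from the fit on averaged replicates, the fits in which CCN2 passed took M5 replicates 2 and 3 as separate samples. For CCN2, dropping each array once gave 1.87 to 2.4. With the replicate block, CCN2 had 2.07 (adjusted p = 0.0968 in limma), and no call changed; the deviations of equally numbered arrays correlated at 0.106, 0.014 and 0.067, so the numbers gave no clear pairing. Signs reversed for AMOTL1 with the mean of its probe sets (0.07) and for AJUBA without M5 replicate 2 (0.06, leave-one-out range -0.47 to 0.06). Without scaling the median over all probe sets was 0.06 and CCN2 2.05, and with trimmed-mean scaling -0.03 and 1.97. For each of these results the cause was not tested. Without detection calls, low signals such as those of ANKRD1 set no fold.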
